A study of Mus musculus with 5 samples.

Results

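Dnah17, which encodes a heavy chain of the dynein motors that bend sperm tails and cilia, lies close to Socs3 on mouse chromosome 11. Both genes carried more signal in the colon of mice given an agonist of the IL-11 receptor. Dnah17 and 8 other genes near Socs3 (Syngr2, Tk1, Afmid, Birc5, Tmem235, Pgs1, Cyth1 and Usp36) were followed here to ask whether Dnah17 was alone among the neighbours of Socs3. Dnah17 and Socs3 were chosen by their rise in this same comparison, so their values are a description and carry no test. The other 8 genes were named for lying near Socs3, but they are not every gene of that stretch: Tha1, which lies among them and is nearer to Socs3 than 7 of the 8, was not in the list and is described with the wider stretch. All 9 genes were measured, among 32917 features tested in all, and each of their 16 probes passed the filter on dim signal, which kept a probe that exceeded background clearly on 2 or more of the 5 arrays.

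Whole-colon RNA of single wild-type C57BL/B6 mice was hybridised to 5 single-colour arrays. There were 2 Control mice and 3 mice that had received NT-3N intravenously 3 hr before the colon was taken. NT-3N is a human IL-11 modified for stability and activity, and the mice that received it were 8 weeks old. The Control mice were untreated and no vehicle injection is described, so the effects of agonist and injection cannot be told apart. The submitters' series text gives the dose as 10 mg, whereas the methods give that figure in micrograms. The arrays shared 1 slide and 1 scan time. Per array, 70.6% to 72.9% of the probes exceeded background clearly, with 0 saturated spots. All 8 epithelial and all 5 smooth muscle marker genes were well above background on all 5 arrays, as the tissue label implies. Whole colon holds many cell types, and fewer cells of a type cannot be told apart from less RNA per cell.

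IL-11 binds its own receptor chain together with gp130, and the receptor complex activates the transcription factor STAT3. SOCS3 is made in response and binds the receptor complex, where it damps the signal, which makes Socs3 one of the best known early targets of this pathway. Genes that lie side by side can share regulatory DNA, but neighbours of a strongly induced gene often have enhancers and promoters of their own. Dynein heavy chains of the axoneme are known for their work in motile cilia and flagella, structures that the lining of the colon is not known for.

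In gene order, the genes measured ran Syngr2, Tk1, Afmid, Birc5, Tmem235, Tha1, Socs3, Pgs1, Dnah17, Cyth1 and Usp36. Pgs1 is the first gene after Socs3 in the RefSeq table, and Dnah17 comes 3 places after Socs3, with a microRNA gene between that has no probe. The gene bodies of Pgs1 and Dnah17 overlap in that table and lie on opposite strands, as do those of Tk1 and Afmid. Where the probes lie within their genes is not given in the sources used here.

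Promoter windows of 250 bases before and 50 bases after a transcript start were taken from RefSeq on GRCm38.p6 and searched for TTCNNNGAA, the core pattern that STAT factors bind, which reads alike on both strands. The table held windows for Socs3 and 8 of the 9 genes, with Tmem235 the gene it did not list. The pattern occurred in the window of Socs3 and in 1 of 3 windows of Cyth1, and in 8.3% of all 32851 windows. The 2 matches are shown because the promoter of Socs3 is the natural point of comparison for its neighbours, with the pattern in capitals and 10 bases on each side. The Socs3 match lies at chr11:117969502-117969530 on the minus strand and begins 154 bases before the start, and the Cyth1 match at chr11:118202746-118202774 on the minus strand begins 34 bases before it.
Socs3: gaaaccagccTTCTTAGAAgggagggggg
Cyth1: tgtgattacaTTCATGGAAatgagcctgc
These letters were not in the windows of Dnah17, Pgs1, Syngr2, Tk1, Afmid, Birc5 or Usp36. In 10 of the 11 windows the start used differs from the outer bound of the gene. Other starts that these genes may have were not searched, and a match is a description and not a binding site.

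Dnah17 was dim in Control colon and brighter on every NT-3N array. Its log2 signal was 5.55 and 5.15 on the 2 Control arrays and 7.26, 7.46 and 7.59 on the 3 NT-3N arrays. The groups did not overlap, as was the case for 28.4% of all features, and Dnah17 was chosen for its rise here. The means were 5.35 ± 0.28 (SD, n = 2) and 7.44 ± 0.17 (SD, n = 3), a log2 difference of 2.09 with a standard error of 0.19, or 4.25-fold. Before scaling between arrays the processed intensity was 44.2 and 36.3 in Control and 137.0, 200.9 and 201.3 in NT-3N, so the rise was present in the unscaled values. The probe was well above background on all 5 arrays. Because the signal is dim, its size depended on the background treatment: with normexp correction, which adds an offset of 50 to every spot, the log2 difference was 1.14. Dnah17 had 1 probe, so no other probe bears on it.

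Socs3 itself was far brighter and rose on the same arrays. Its log2 signal was 10.63 and 10.11 in Control and 12.88, 13.21 and 13.14 in NT-3N. Control replicate 1 was the higher Control array for both genes, and NT-3N replicate 1 the lowest NT-3N array for both, whereas the highest was NT-3N replicate 2 for Socs3 and replicate 3 for Dnah17. The means of Socs3 were 10.37 ± 0.37 (SD, n = 2) and 13.08 ± 0.18 (SD, n = 3), a log2 difference of 2.71 or 6.52-fold. The order of the 2 genes by fold was the same under each of 17 alternative settings, with log2 differences between 2.45 and 2.96 for Socs3 and between 1.14 and 2.29 for Dnah17.

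**Figure D1:**
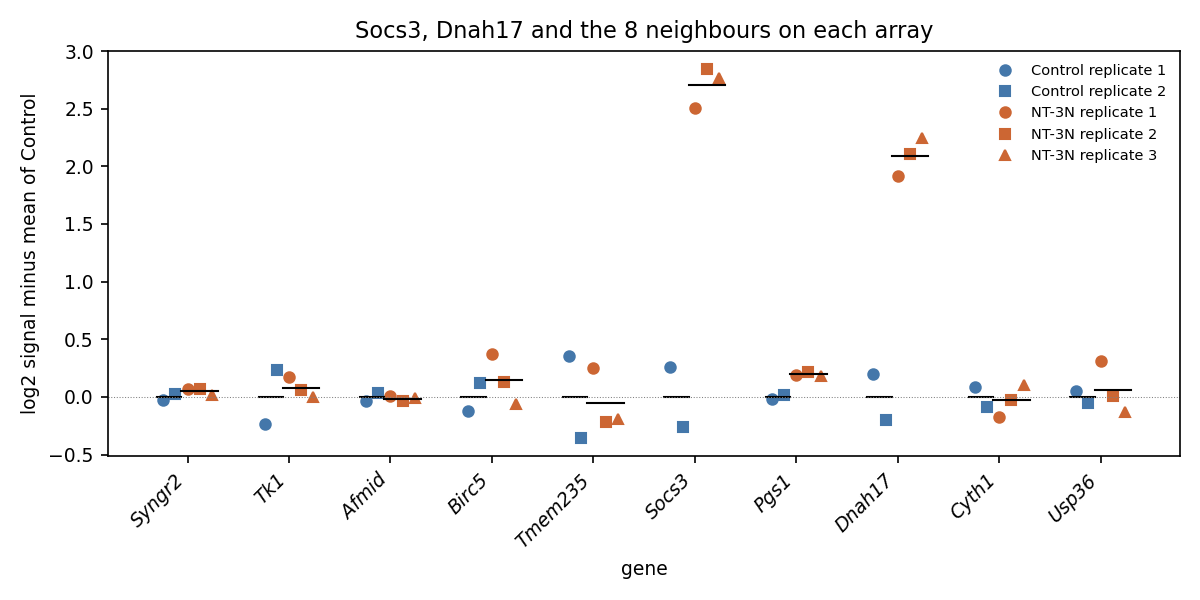
Log2 signal of each gene on each array, minus the mean of the 2 Control arrays, with genes in chromosomal order and horizontal bars at the group means. Socs3 and Dnah17 stand at 2.71 and 2.09 on the NT-3N arrays on average, while the means of the other 8 genes lie between -0.05 and 0.20.

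None of the 8 listed neighbours passed an adjusted p of 0.05 in limma, a linear model that shares its estimate of the spread across features, with Benjamini-Hochberg adjustment over all of them. Over all features 0.143% passed, so 0 of 8 is what the background share would give. Of the 8, 5 had a higher and 3 a lower mean in NT-3N (of the 3, Afmid and Cyth1 were at 0.001 and 0.000 with median scaling), and their median log2 difference was 0.06, against -0.02 over all features. By the brightest probe of each gene, only Pgs1 had an unadjusted p under 0.05, where 9.62% of all features did. By the same probes, only Pgs1 showed no overlap between the groups, where 28.4% of all features did. The dimmest Usp36 probe, described below, also met both. With Tha1 added, which gives all 9 genes measured from Syngr2 to Usp36 other than Socs3 and Dnah17, 0 were called, 2 had an unadjusted p under 0.05 and 2 showed no overlap, with a median of 0.06. No call was made for any of the 8 in any of the 132 values obtained under the alternatives.

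Pgs1, the mitochondrial synthase that starts cardiolipin formation, lies between Socs3 and Dnah17. Its log2 signal was 11.81 and 11.84 in Control and 12.02, 12.04 and 12.01 in NT-3N. The arrays of each group were tight and the 3 NT-3N arrays all lay higher, but by little. The log2 difference was 0.20, with a 95% interval from 0.01 to 0.38 and a limma adjusted p of 0.50. Under the alternatives it stayed between 0.18 and 0.24, and its adjusted p between 0.24 and 1.

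On the far side of Dnah17, Cyth1 encodes an exchange factor that activates ARF GTPases. Its log2 signal was 12.45 and 12.27 in Control and 12.19, 12.34 and 12.47 in NT-3N. The groups overlapped fully, and the log2 difference was -0.03 with an interval from -0.30 to 0.24 and an adjusted p of 0.95 in limma. A much dimmer probe, named for another transcript of Cyth1, gave a log2 difference of -0.07.

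Usp36, which encodes a deubiquitinating enzyme of the nucleolus, had 3 probes that did not say the same. The brightest read 8.66 and 8.56 in Control and 8.92, 8.62 and 8.48 in NT-3N on the log2 scale. These groups overlapped, with a log2 difference of 0.06, an interval from -0.32 to 0.44 and an adjusted p of 0.92 in limma. A second probe differed by 0.02. The dimmest read 5.08 and 4.83 in Control and 5.49, 5.51 and 5.60 in NT-3N, so that its groups did not overlap, and its log2 difference of 0.58 had an unadjusted p of 0.024 and an adjusted p of 0.44 in a limma fit over all probes. All 3 probes name the same transcript in the files.

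Before Socs3 in gene order, Birc5 and Tk1 are genes of dividing cells. Birc5 encodes survivin, a subunit of the complex that guides chromosomes through mitosis, and Tk1 the thymidine kinase that recycles thymidine for DNA synthesis. Birc5 had a log2 signal of 12.43 and 12.67 in Control and 12.92, 12.68 and 12.49 in NT-3N. The highest array was NT-3N replicate 1 and the lowest Control replicate 1, with the others interleaved. The log2 difference was 0.15, with an interval from -0.20 to 0.50 and an adjusted p of 0.78 in limma, and a second probe gave 0.14. Single arrays moved it: the difference was 0.024 without Control replicate 1, 0.036 without NT-3N replicate 1 and 0.269 without Control replicate 2. Tk1 read 10.72 and 11.19 in Control and 11.13, 11.02 and 10.95 in NT-3N. The 2 Control arrays were the lowest and the highest of the 5, so the log2 difference of 0.08 lay inside their spread, with an interval from -0.29 to 0.44 and an adjusted p of 0.89. A second Tk1 probe gave 0.11.

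Afmid encodes an enzyme of tryptophan breakdown. Its log2 signal was 8.31 and 8.38 in Control and 8.35, 8.31 and 8.33 in NT-3N. The difference was -0.01, with an interval from -0.28 to 0.25 and a limma adjusted p of 0.98, and a dimmer probe gave 0.07. Syngr2, a membrane protein of small vesicles, was the brightest, at 15.21 and 15.26 in Control and 15.30, 15.30 and 15.25 in NT-3N. Control replicate 2 lay just above NT-3N replicate 3, so the groups overlapped, and the log2 difference of 0.05 had an interval from -0.10 to 0.20 and an adjusted p of 0.82. Its second probe gave 0.03.

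Tmem235 encodes a membrane protein and was at the edge of detection. Only 1 of 2 Control arrays and 1 of 3 NT-3N arrays read it clearly above background, with log2 signals of 4.19 and 3.48 in Control and 4.08, 3.62 and 3.64 in NT-3N. The spread within each group exceeded the difference of -0.05, whose interval ran from -0.95 to 0.85, with an adjusted p of 0.98 in limma. The upper limit of 0.85 is not a detection limit, since a larger rise of so dim a signal could also miss an adjusted p of 0.05. For the brightest probe of each of the other 7 neighbours the highest upper limit was 0.50, that of Birc5, while that of the dimmest Usp36 probe was 1.06.

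**Figure D2:**
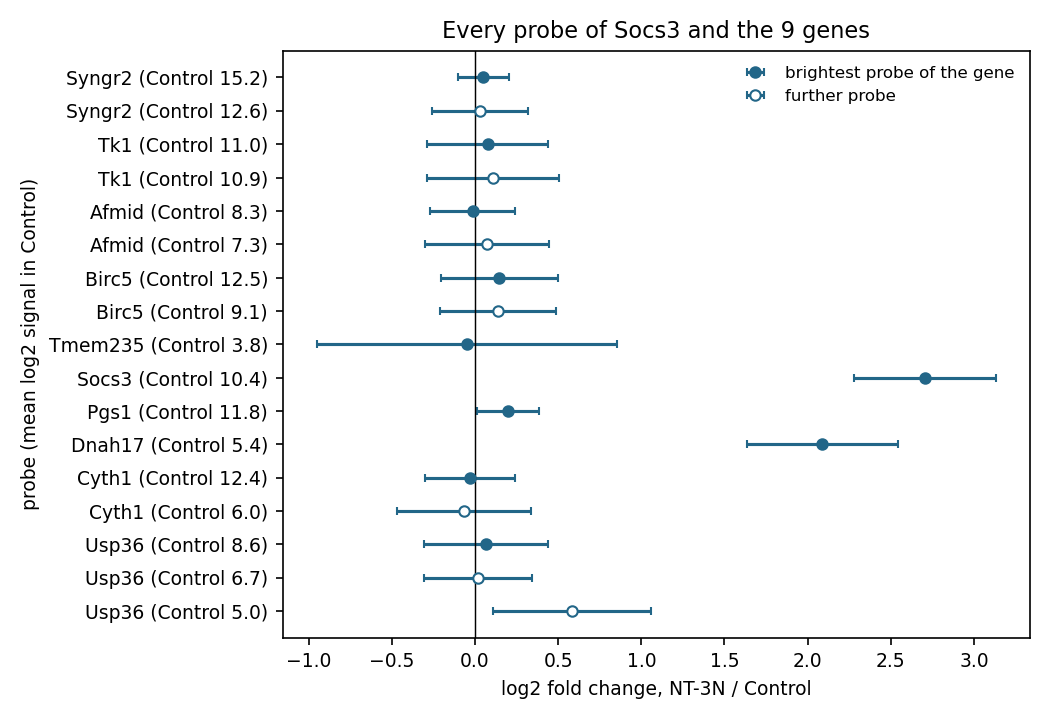
Log2 fold change of NT-3N over Control for each of the 17 probes of Socs3 and the 9 genes, with 95% intervals of a limma fit over all probes, genes in chromosomal order and the mean Control signal in brackets. Socs3 and Dnah17, described without a test, lie at 2.71 and 2.09, and the dimmest Usp36 probe at 0.58 stands apart from the other 2 probes of that gene.

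To set these genes in a wider stretch without choosing by value, all genes from 20 places before to 20 places after Socs3 in the RefSeq order were taken. Without Socs3 and Dnah17 these were 39 genes, of which 21 were measured, 20 of them protein-coding and the 8 neighbours included. Over this stretch limma called 0 of 21 at an adjusted p of 0.05, where 0.143% of all features were called. An unadjusted p under 0.05 was found for 14.3% of them, 3 genes, against 9.62% of all features, and no overlap for 33.3%, 7 genes, against 28.4%. Of the 21, 13 were higher and 8 lower, with a median log2 difference of 0.05. Among the 21, the largest rise was that of Tha1. Socs3 and Dnah17 were left out of this ranking, as they were chosen for their rise.

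Tha1, which encodes a threonine aldolase, is the nearest gene measured before Socs3. Its log2 signal was 9.24 and 9.19 in Control and 9.86, 9.84 and 9.77 in NT-3N. Both groups were tight and well apart, with a log2 difference of 0.61, an interval from 0.37 to 0.84 and an adjusted p of 0.12 in limma. It passed with array weights, at an adjusted p of 0.048, and in none of the other 16 alternatives, over which its adjusted p reached 1. The log2 difference itself stayed between 0.53 and 0.64.

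The lowest log2 differences of the 21 were those of Lgals3bp, which encodes a secreted binding partner of galectin-3, and of 2900041M22Rik, a long non-coding RNA. Lgals3bp read 15.04 and 15.51 in Control and 15.24, 14.16 and 14.53 in NT-3N, so the groups overlapped through NT-3N replicate 1. Its log2 difference was -0.63 with an interval from -1.39 to 0.12 and an adjusted p of 0.59, while the local-pooled-error test run on the same arrays gave 0.0079. 2900041M22Rik read 5.87 and 6.26 in Control and 5.80, 5.27 and 5.52 in NT-3N, with a log2 difference of -0.54 (limma adjusted p = 0.55). Its groups did not overlap, although NT-3N replicate 1 came close to Control replicate 1.

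**Figure D3:**
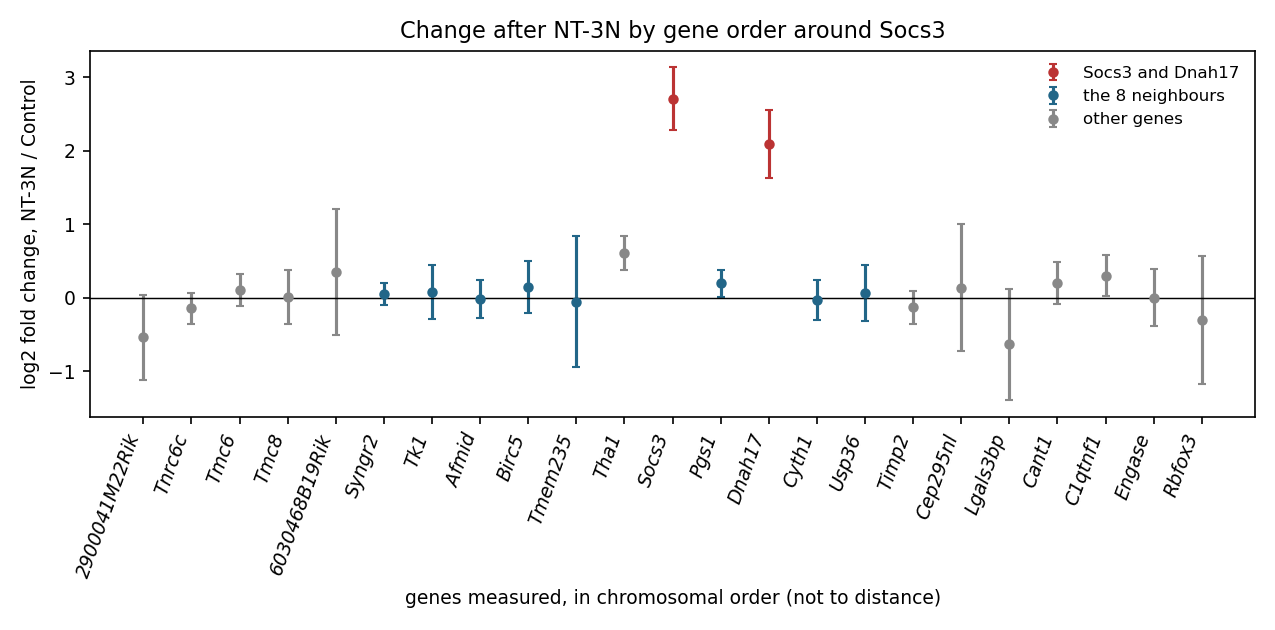
Log2 fold change of NT-3N over Control with 95% limma intervals for the 23 measured genes around Socs3, in chromosomal order and not to distance. Socs3 and Dnah17, chosen for their rise and described without a test, lie above 2 with Pgs1 between them at 0.20. The highest of the other genes, Tha1, lies at 0.61 on the other side of Socs3.

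The genes most like Dnah17 across the 5 arrays lay elsewhere in the genome. Likeness was the root mean square difference between log2 profiles, each centred on its own mean, over 16736 named genes well above background on all arrays. The 5 most alike were Osmr, a receptor subunit for oncostatin M, at 0.118, Lrg1, a secreted glycoprotein, at 0.133, Ctps, the enzyme that makes CTP, at 0.152, Ch25h, which hydroxylates cholesterol, at 0.175 and Gem, a small GTPase, at 0.177. Their NT-3N means exceeded their Control means by between 1.92 and 2.14 on the log2 scale. Socs3 stood at 0.313 and rank 25, and Dnah17 ranked 6 by likeness to Socs3. Pgs1 ranked 2487 by likeness to Dnah17, at 0.942, and the other 6 neighbours that could be ranked lay between ranks 5089 and 8050. With 5 arrays this measure is carried mostly by the difference between the groups, and it is a description.

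The family of Dnah17 was looked at next. Of 14 other axonemal dynein heavy chains, 7 were measured (Dnah2, Dnah5, Dnah6, Dnah8, Dnah9, Dnah10 and Dnah11), and limma called 0 of them at an adjusted p of 0.05. An unadjusted p under 0.05 was found for 2, Dnah6 and Dnah10, both higher, and the groups did not overlap for the same 2. That is 28.6% of the 7, against 9.62% of all features for the unadjusted p and 28.4% for no overlap, while 0.143% of all features were called. The median log2 difference of the 7 was 0.06.

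Dnah6, an inner arm heavy chain, had 3 probes, of which 1 was kept. That probe read 5.50 and 5.64 in Control and 6.87, 6.20 and 6.35 in NT-3N. All 3 NT-3N arrays were higher, NT-3N replicate 1 most, with a log2 difference of 0.90, an interval from 0.33 to 1.48 and an adjusted p of 0.33. Dnah10, also an inner arm chain, read 5.14 and 4.82 in Control and 5.88, 5.46 and 5.50 in NT-3N. Here too the groups did not overlap and NT-3N replicate 1 was the highest, with a log2 difference of 0.64 (limma adjusted p = 0.48). Under the alternatives the difference lay between 0.48 and 1.04 for Dnah6 and between 0.22 and 0.80 for Dnah10, with 0 calls. The lowest value of each came with normexp correction, so the size of these dim signals depended on the background treatment. The other 5 differed by between -0.23 for Dnah11 and 0.24 for Dnah5, with overlapping groups and adjusted p from 0.76 to 0.97 in limma. Of these, Dnah11 was well above background on only 2 of 3 NT-3N arrays, and 1 of 2 Dnah9 probes was kept.

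**Figure D4:**
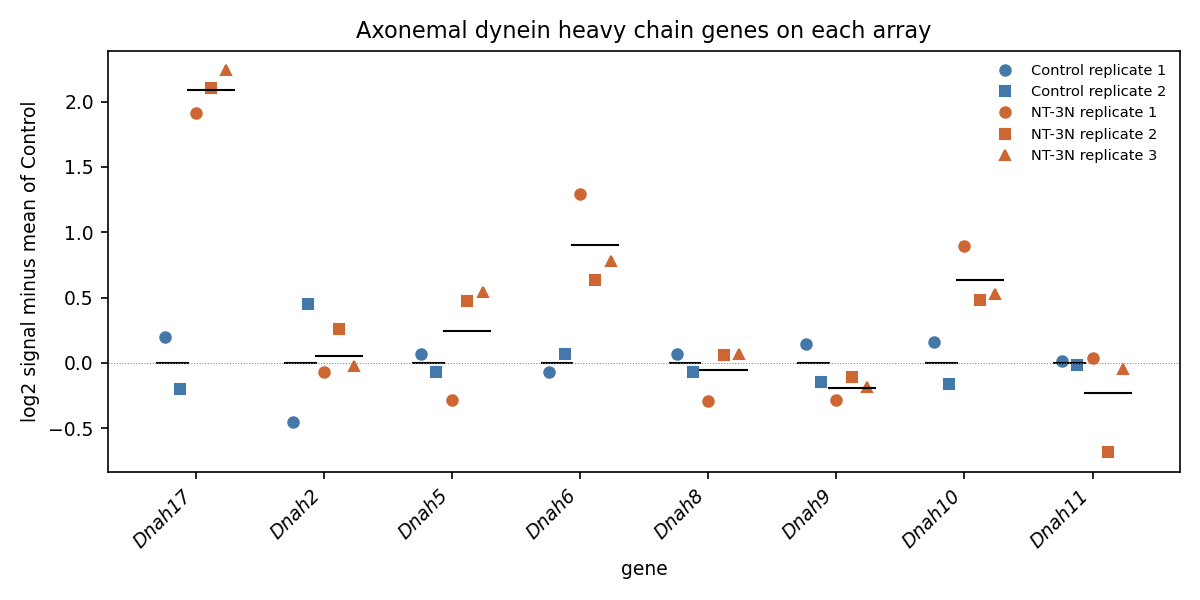
Log2 signal of Dnah17 and the 7 other measured axonemal dynein heavy chain genes on each array, minus the mean of the 2 Control arrays, with horizontal bars at the group means. Dnah17 lies at 2.09 on average in NT-3N, Dnah6 at 0.90 and Dnah10 at 0.64, and the other 5 genes between -0.23 and 0.24.

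Dnah17 was also set beside markers of cells that could carry it. Over all features 0.143% were called and 15263 of 32917 had a higher mean in NT-3N. For the short lists used here, 0 calls is what the share called would give. Of 12 markers of ciliated cells 7 were measured, 3 with a higher and 4 with a lower mean in NT-3N and 0 called. Foxj1, the regulator that defines these cells, had a log2 mean of 4.72 in Control and 4.57 in NT-3N. The summed signal of the 7 was 40203 to 42579 in Control and 30281 to 45081 in NT-3N, ranges that overlap. Most of it came from Mcidas, with a log2 mean of 15.31 in Control, so the sum says little about the other markers. Of 8 neutrophil markers 5 were measured, 3 with a higher and 2 with a lower mean in NT-3N and 0 called. The lower 2 were Mpo and Csf3r, with log2 differences of -0.57 and -0.16, and Mmp8 differed by 0.50. The remaining pair, S100a8 and S100a9, which encode the main cytosolic proteins of neutrophils, were well above background on 0 of 2 Control and 3 of 3 NT-3N arrays, so they passed the filter on dim signal only through NT-3N. S100a8 and S100a9 had the largest log2 differences of the 5, 2.67 and 5.59, but their Control signal was not clearly above background. The size of these differences is therefore uncertain. The summed neutrophil signal was 77060 to 78062 in Control and 64092 to 77503 in NT-3N. Nearly all of it was Csf3r, so it says little about the other markers. The part of these cells in the Dnah17 result was not tested.

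For Birc5 and Tk1, the cell cycle genes gave the wider view. All 24 listed genes were measured, 23 with a higher mean in NT-3N and 1, Incenp, lower (0.011 with median scaling). Over all features 15263 of 32917 had a higher mean. In limma 0 of the 24 were called, where 0.143% of all features were, and 2 had an unadjusted p under 0.05. These 2 are 8.33% of the list, against 9.62% of all features. The median log2 difference of the 24 was 0.18, against -0.02 over all features. The 3 with the largest difference were Mcm4 with 0.44 (adjusted p = 0.23), Mcm3 with 0.35 (0.47), both subunits of the replicative helicase, and the mitotic cyclin Ccnb2 with 0.32 (0.57). The partners of survivin differed by 0.05 for Aurkb, 0.13 for Cdca8 and -0.03 for Incenp, with adjusted p of at least 0.79 in limma. Without Control replicate 1 the difference fell to 0.176 for Mcm3 and to 0.011 for Cdca8, and Aurkb was at -0.112. Control replicate 1 had the lowest signal of the 5 arrays for Birc5 and Tk1, and for all of the 24 listed genes but Plk1 and Rrm2. The higher means of the list therefore rest in part on that 1 Control array. B cell and follicle markers, which come with dividing cells in the lymphoid follicles of the colon, summed to 5598 and 1747 on the 2 Control arrays and to between 5041 and 6116 in NT-3N, so here Control replicate 2 was the array that stood apart. Of these markers 7 of 9 were higher and 0 called, where 0.143% of all features were called. The part of these markers in the signal of Birc5 and Tk1 was not tested.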

How the data were processed

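The authors extracted spot values with Agilent Feature Extraction 11.0.1.1. Per array, the deposited tables hold a processed intensity after background subtraction, spot and background medians, and flags, on an array design annotated on mm9. The authors also deposited log2 values, quantile-normalized, which served as an alternative. Control spots and outlier spots were dropped and spots of a probe were averaged. As in the study's methods, processed signal was log-transformed (log2) and arrays were quantile-normalized. Accessions without version were matched to RefSeq symbols of GRCm38.p6, which named 32994 of 56605 probes, so probes filed under other accessions were not assigned to these genes. A gene was represented by its brightest probe. limma 3.58.1 in R 4.3.3 (lmFit, eBayes with intensity trend, two-sided) compared 3 NT-3N with 2 Control arrays, with Benjamini-Hochberg adjustment over 32917 features. The study's local-pooled-error test was an alternative. An exact permutation test of 1 gene cannot go below p = 0.1 here. The number of arrays limits precision. The tests were tested on simulated data with normal noise drawn from the spread that limma fitted, so the assumptions of limma held there by design. Named were the 9 genes with Socs3, the 3 largest changes in the stretch, all measured dyneins, 3 partners of survivin and the 3 largest cell cycle changes. Likeness genes were the 5 closest. The genes and lists were chosen with earlier results of these data known.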

Additional observations from a re-analysis of the deposited data

How the results depend on the processing

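The calls among the 8 neighbours, the dyneins and the cell cycle genes numbered 0 in all 17 alternatives. In the wider stretch the 0 calls became 1 with array weights (Tha1) and 1 with the local-pooled-error test (Lgals3bp). The log2 difference of Dnah17 was 1.14 under normexp, where the offset shrinks differences between dim spots, and between 1.89 and 2.29 without each array in turn. That of Socs3 lay between 2.45 (without Control replicate 2) and 2.96 (without Control replicate 1). Nothing in the labels ties mice with 1 replicate number together, and deviations of same-numbered arrays correlated at only 0.13 and 0.036. With the replicate block Dnah17 differed by 2.01, and limma made 0 calls over all features, with Tmem235 at 0.018. The 47 calls over all features became 2 without the filter or the trend, 200 with array weights and 347 with the local-pooled-error test. They numbered 31 and 116 without Control replicates 1 and 2, and 84, 1 and 0 without NT-3N replicates 1, 2 and 3. A block on slide or scan was not run, as all arrays shared both. With 1 Control left, its spread is taken to equal that of the other group.

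Of 402 values of genes with a test, 23 had the opposite sign, all within 0.40 of 0 and none called. With median scaling Afmid was 0.001, Cyth1 0.000 and Incenp 0.011, with the mean of probes Afmid was 0.028, and with normexp Dnah2 was -0.029. With the local-pooled-error test Dnah2 was -0.027 and Dnah8 0.060, and with array weights Aurkb was -0.004 and Dnah8 0.025. Without each array in turn the range was -0.050 to 0.020 for Afmid, -0.112 to 0.204 for Aurkb, -0.118 to 0.056 for Cyth1, -0.399 to 0.511 for Dnah2, -0.121 to 0.063 for Dnah8, -0.147 to 0.095 for Incenp, -0.156 to 0.310 for Tk1, -0.404 to 0.031 for Tmem235 and -0.061 to 0.161 for Usp36. The cause was not tested.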

Other observations

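Some probes are named in the files by an interval of chromosome 11 on mm9 and not by a transcript. They were picked after their values were seen. Where these intervals lie among the genes described was not worked out, since no gene positions on mm9 were used here. Between positions 117768049 and 117842574 there were 7 such probes, of which 6 passed the filter on dim signal. In a limma fit over all probes 0 of the 6 were called, with log2 differences between -0.18 and 0.50 and adjusted p between 0.78 and 0.94, and 0 had an unadjusted p under 0.05. The brightest, for the R strand of 117835849 to 117842574, read 7.67 and 7.65 in Control and 7.87, 7.51 and 7.43 in NT-3N, groups that overlap.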
